A study of Mus musculus with 12 samples.

Results

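Peroxisome genes were followed in mouse lung adenocarcinomas labelled by a dominant negative form of PPARα, a receptor of fatty acids, and by the genotype of the glucose transporter Glut1. The group was fixed as a list of 48 symbols looked up in the deposited count table of 39017 genes. It holds 13 peroxins (the Pex proteins that build and divide peroxisomes and import their enzymes), 5 other membrane proteins and transporters, and 30 enzymes. All 48 were found in the table, and 46 passed the filter on low counts. *Far2*, a fatty acyl-CoA reductase (1 to 9 reads per tumor), and *Baat*, a bile acid conjugating enzyme (1 to 13 reads), did not pass.

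PolyA RNA was sequenced from the CD45-negative fraction of 12 macrodissected tumors, 3 in each of 4 groups, with 25263794 to 32654223 reads counted in genes per tumor. All mice were C57BL/6 and carried Trp53 Fl/Fl and the CCSP-rtTA transgene, with a further allele common to all groups (KP). The KPG1 mice in addition carried Fl/Fl alleles of *Slc2a1*, the gene of Glut1. Tumors were started in every mouse, controls included, with 6000 viral units of an intratracheal lentivirus, Lenti.TRE-PPARaD13_PGK-Cre, which delivers Cre together with PPARαΔ13, a dominant negative form of PPARα that is transcribed only when rtTA and doxycycline are present. The KP-PPARαΔ13 and KPG1-PPARαΔ13 mice received doxycycline in the diet (625 mg/kg) for 15 days. The KP and KPG1 mice stayed on a regular diet. Tumors were taken 26 weeks after initiation, and the age of the mice was not given. The diet and the transgene cannot be told apart in this design, and rtTA came from the promoter of a club cell secretory protein, so that induction depended on the activity of that promoter in the tumor. By the sample descriptions the 12 tumors came from 9 mice: KP replicates 1 and 2 shared a mouse, as did KPG1 replicates 1 and 2 and KPG1-PPARαΔ13 replicates 1 and 3. Tumors of one mouse are not independent animals, so the p-values measure in part the spread between tumors. Sex was also unbalanced. The KP group was wholly female and the KPG1 group wholly male. KP-PPARαΔ13 replicates 1 and 3 were male and replicate 2 female, and KPG1-PPARαΔ13 replicate 2 was male and replicates 1 and 3 female. Values with sex as a covariate thus take the sex difference from the doxycycline groups alone, where both female KPG1-PPARαΔ13 tumors shared a mouse.

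Peroxisomes are small organelles with a single membrane that shorten very long and branched fatty acids, make the first steps of ether lipids and break down hydrogen peroxide. They have no genome: their enzymes are made in the cytosol and carried in by receptors such as Pex5 and Pex7, while Pex3, Pex16 and Pex19 place proteins in the membrane and the Pex11 proteins drive elongation and division. Alveolar type 2 (AT2) cells, which secrete lipid-rich surfactant, are known for abundant peroxisomes, and in rodent liver PPARα ligands are known to multiply them.

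The labels were first set against the genes they concern. *Ppara*, whose count may include reads of the transgene, stood at 15.7, 10.5 and 9.54 CPM in KP replicates 1, 2 and 3 (CPM, counts-per-million units, with library sizes scaled by the TMM factors of edgeR), and at 2.71, 64.6 and 246.1 CPM in the KP-PPARαΔ13 replicates. In KPG1-PPARαΔ13 it stood at 8.90, 19.2 and 17.7 CPM, against 7.24, 10.5 and 15.3 CPM in KPG1. *Ppara* was thus above all control tumors of its genotype in 2 KP-PPARαΔ13 and 2 KPG1-PPARαΔ13 tumors, and clearly so only in the former. *Slc2a1* read 41.7, 35.3 and 57.7 CPM in KP and 30.2, 64.0 and 39.9 CPM in KPG1, groups that overlapped. With doxycycline it read 152.5, 115.1 and 108.1 CPM in KP tumors and 23.7, 53.2 and 54.5 CPM in KPG1 tumors, which were apart. Transcripts of a floxed allele can still be counted after recombination. Groups are called below by their labels, which these genes bore out in some tumors only.

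The most abundant peroxisome genes were enzymes. Per kilobase of exon, averaged over the 12 tumors, *Cat*, the catalase that removes hydrogen peroxide, had 199.3 CPM, *Idh1*, an NADP-dependent isocitrate dehydrogenase shared with the cytosol, 122.6 CPM, and *Gnpat*, which starts ether lipid synthesis, 100.7 CPM. The peroxins lay lower. The highest of them were *Pex5*, the import receptor for most matrix enzymes (23.8 CPM per kilobase), *Pex2*, a ubiquitin ligase of the import machinery (23.8), and *Pex19*, the carrier of membrane proteins (19.3). Among the membrane proteins *Abcd3*, an importer of acyl-CoAs, led with 40.8 CPM per kilobase, followed by *Slc25a17*, a cofactor carrier, with 36.8 and *Pxmp4* with 13.3. At the other end, *Far2*, *Abcd2*, *Baat* and *Slc27a2* each had under 1 CPM per kilobase (0.0143, 0.0995, 0.119 and 0.169). The plot of levels by exon length shows this order for all 48 genes.

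**Figure D1:**
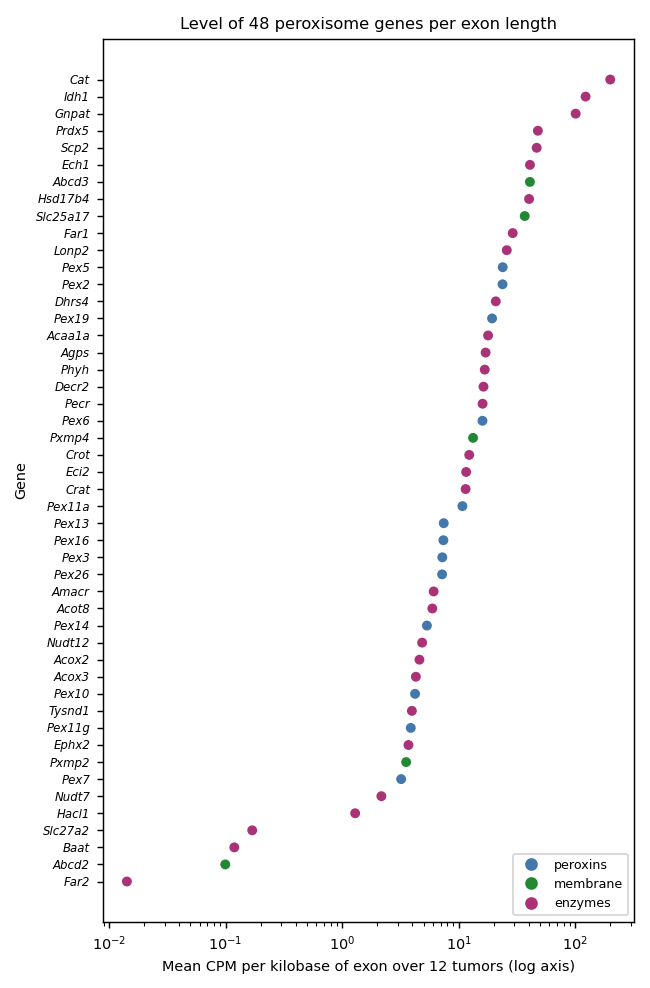
Mean level of each of the 48 genes over 12 tumors, in CPM per kilobase of exon on a log axis, ordered by level and colored by class. *Cat* sits at 199.3 and the highest peroxin, *Pex5*, at 23.8, while 4 genes lie below 1.

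The peroxins also had lower spreads from tumor to tumor than the other classes, as described by medians. The standard deviation (SD) of log2 CPM over the 12 tumors had a median of 0.27 over the 13 peroxins, 0.39 over the 28 tested enzymes and 0.58 over the 5 membrane proteins, beside 0.45 over all 16527 genes tested. These are descriptions over genes of one set of tumors, and low counts widen them. *Pex5* was the steadiest member (SD 0.19), with 78.7 to 119.5 CPM. The widest were *Slc27a2*, a very long-chain acyl-CoA synthetase (SD 1.58), *Ephx2*, the soluble epoxide hydrolase (1.35), *Acox2*, the branched-chain acyl-CoA oxidase (1.07), and *Pex11a*, the peroxin of division induced by peroxisome proliferators (0.82). *Slc27a2* rested on few reads, 1 to 45 in 11 tumors and 120 in KPG1-PPARαΔ13 replicate 3.

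The promoters of *Pex11a*, *Tysnd1* and *Cat* are shown as examples of members described in full in the comparisons that follow. Other such members with RefSeq entries, among them *Pecr* and *Lonp2*, are not shown. Promoters are from GRCm38.p6, from 250 bases before to 50 bases after the start. They are written 5′ to 3′ on the strand of the gene, which is minus for *Pex11a*, plus for *Tysnd1* and minus for *Cat*. Capitals mark the GC box, GGGCGG, then the box bound by NF-Y, CCAAT, which appears as ATTGG where it is on the other strand, and a nuclear receptor element, AGGTCA.
Pex11a, chr7:79743082-79743381: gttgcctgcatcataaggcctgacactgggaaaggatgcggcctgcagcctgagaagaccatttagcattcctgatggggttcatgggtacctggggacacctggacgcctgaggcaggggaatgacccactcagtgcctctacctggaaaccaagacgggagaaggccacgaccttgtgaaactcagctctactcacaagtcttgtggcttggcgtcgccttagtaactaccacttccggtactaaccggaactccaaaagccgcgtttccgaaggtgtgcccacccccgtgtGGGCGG
Tysnd1, chr10:61695336-61695635: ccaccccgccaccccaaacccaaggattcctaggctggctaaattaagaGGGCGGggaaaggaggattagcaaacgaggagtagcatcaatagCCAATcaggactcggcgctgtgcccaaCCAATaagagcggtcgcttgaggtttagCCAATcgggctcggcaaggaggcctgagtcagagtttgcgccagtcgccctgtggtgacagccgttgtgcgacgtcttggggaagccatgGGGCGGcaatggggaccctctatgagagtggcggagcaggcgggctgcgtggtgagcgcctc
Cat, chr2:103485104-103485403: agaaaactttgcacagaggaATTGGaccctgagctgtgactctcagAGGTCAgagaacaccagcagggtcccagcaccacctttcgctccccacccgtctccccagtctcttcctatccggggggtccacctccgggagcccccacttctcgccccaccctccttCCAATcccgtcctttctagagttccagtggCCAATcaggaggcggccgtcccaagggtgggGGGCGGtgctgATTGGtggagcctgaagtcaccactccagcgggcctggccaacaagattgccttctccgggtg

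Promoters were available for 38 of the 48 members, and motif matches were counted on both strands. GGGCGG, the GC box, was in 32 of 38 (84.2%), beside 65.4% of the promoters of the 11132 tested genes with an entry and 38.2% of all 27025, and in 9 of 11 peroxins, 2 of 3 membrane proteins and 21 of 24 enzymes. The median GC content was 59.2% for the members and 60.3% for tested genes. CCAAT was in 17 of 38 (44.7% beside 42.4% of tested genes and 41.1% of all). TATAAA was in 3 (7.89% beside 9.63% and 15.7%), the peroxins *Pex14*, *Pex16* and *Pex26*. AGGTCA, the unit of the direct repeat that PPAR and RXR bind, was in 5 (13.2% beside 15.4% and 18.1%): *Pex11g*, *Scp2*, *Phyh*, *Cat* and *Slc27a2*. The repeat itself, taken as this unit 2 times in a row with any 1 base between, was in none, beside 0.0449% of tested genes and 0.0481% of all. A looser form that allows any base after AGG in each unit, and so contains the first, was also in none, beside 0.359% and 0.451%. No match says only that these letters are not in these windows.

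A single tumor stood above the rest. KPG1 replicate 3 had the highest value of 16 of the 46 members (34.8%), whereas it was highest for 6.05% of all genes tested, and those 16 comprised 5 peroxins, 2 membrane proteins and 9 enzymes. The KP-PPARαΔ13 tumors held the lowest value of 26 members, with 7, 12 and 7 in replicates 1, 2 and 3. This was 15.2%, 26.1% and 15.2% of the members, beside 10.2%, 9.26% and 12.4% of all genes, so that replicates 1 and 3 were near the share over all genes.

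**Figure D2:**
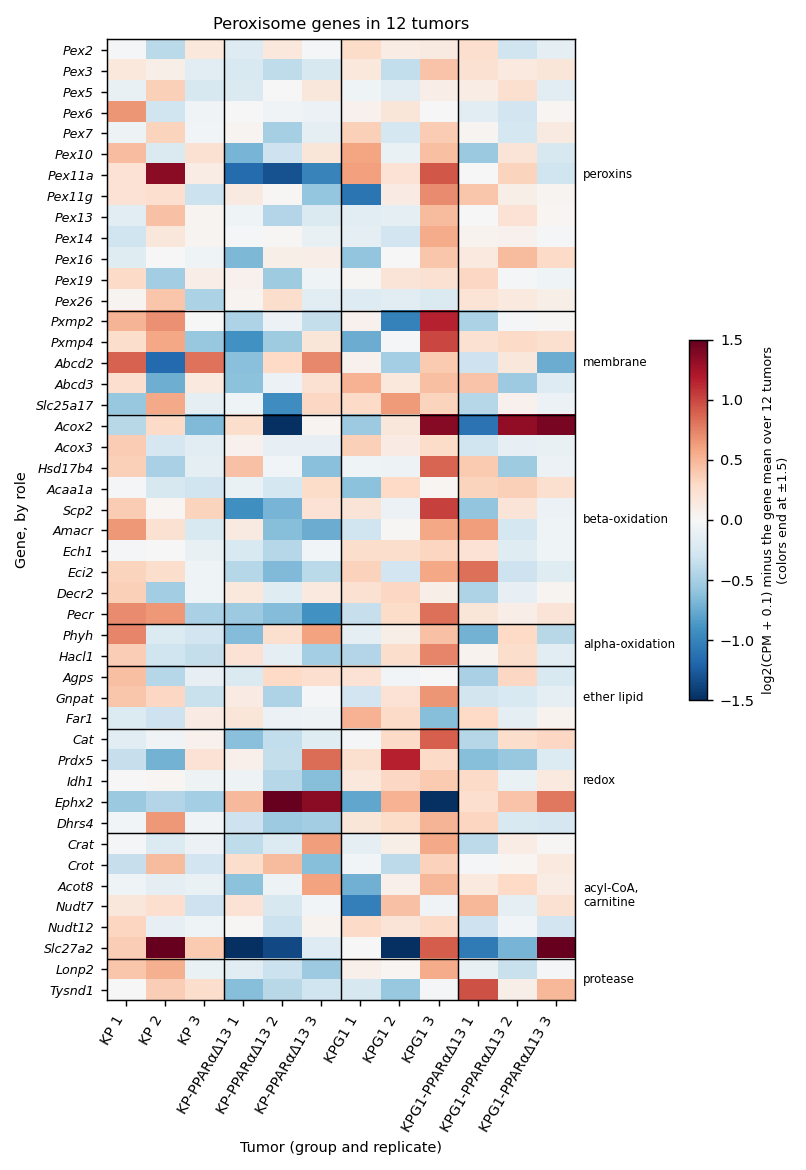
Log2(CPM + 0.1) of the 46 tested genes in 12 tumors, each minus the mean of its gene, with genes grouped by role and tumors by group (red above, blue below the mean). The column of KPG1 3 is mostly red, with *Ephx2* and *Far1*, both lowest in that tumor, among the blue exceptions. The *Pex11a* row is blue in all KP-PPARαΔ13 tumors.

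Peroxins and enzymes were then compared within each tumor, by averaging over each class the deviation of log2 CPM from the mean of the gene. The peroxin averages were 0.091, 0.15 and -0.052 in KP and -0.23, -0.23 and -0.17 in KP-PPARαΔ13, so that all 3 tumors with doxycycline lay below the 3 without. In KPG1 they were -0.011, -0.051 and 0.35, and in KPG1-PPARαΔ13 0.078, 0.078 and -0.0090, which overlapped. *Pex11a* weighs heavily in the peroxin averages of the KP groups. Its mean log2 CPM differed by -1.71 between KP-PPARαΔ13 and KP, beside a median of -0.15 over the 13 peroxins. Averages without *Pex11a* were not taken. The enzyme averages were 0.15, 0.058 and -0.12 in KP, -0.18, -0.30 and -0.052 in KP-PPARαΔ13, -0.092, 0.084 and 0.32 in KPG1, and -0.056, 0.0014 and 0.19 in KPG1-PPARαΔ13. Each doxycycline group overlapped with its control for the enzymes. The averages of the 5 membrane proteins were the widest, with 0.28, -0.028 and 0.057 in KP, -0.54, -0.26 and 0.23 in KP-PPARαΔ13, 0.042, -0.16 and 0.67 in KPG1, and -0.11, -0.0067 and -0.16 in KPG1-PPARαΔ13. They overlapped likewise. The difference of the peroxin minus the enzyme average ran from -0.20 in KPG1-PPARαΔ13 replicate 3 to 0.13 in KPG1-PPARαΔ13 replicate 1, tumors of the same mouse, while the SD between tumors of a group was 0.12. It was above 0 in 2 of 3 tumors of KP, KPG1 and KPG1-PPARαΔ13 and in 1 of 3 of KP-PPARαΔ13, and all 4 groups overlapped. The group means were 0.033 in KP, -0.030 in KP-PPARαΔ13, -0.0074 in KPG1 and 0.0042 in KPG1-PPARαΔ13, apart by less than that SD. This depended on the members averaged. With the 10 peroxins and 20 enzymes of at least 20 CPM, the difference was 0.023, -0.23 and -0.11 in KPG1 and 0.19, 0.088 and 0.025 in KPG1-PPARαΔ13, which did not overlap, by a small margin. Their means of -0.11 and 0.10 were further apart than the SD of 0.12 between tumors of a group. The KP groups, with means of 0.051 and -0.044, overlapped there too.

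**Figure D3:**
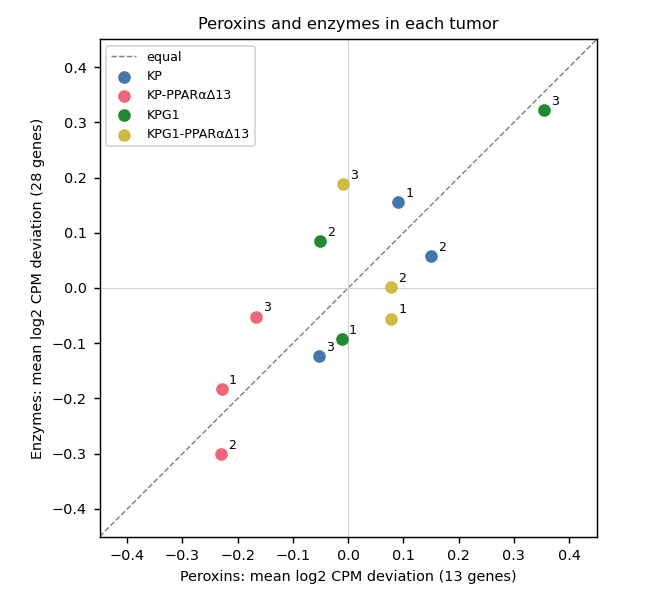
Mean log2 CPM deviation of 13 peroxins (x axis) and 28 enzymes (y axis) in each tumor, numbered by replicate, where the dashed line marks equal values. The KP-PPARαΔ13 tumors lie between -0.23 and -0.17 for the peroxins, and KPG1 3 is highest on both axes.

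To determine how peroxisome genes stood with doxycycline in tumors of Glut1 wild-type mice, KP-PPARαΔ13 was compared with KP. None of the 46 members passed an adjusted p-value of 0.05 (edgeR quasi-likelihood test, Benjamini-Hochberg over all genes), as did 1 gene, or 0.00605%, of the 16527 tested. The smallest p-value was that of *Pex11a*, and most members had lower means with doxycycline: 34 of 46 (73.9%) had a log2 fold change below 0, beside 50.8% of all genes. These were 11 of 13 peroxins, 5 of 5 membrane proteins and 18 of 28 enzymes. The median log2 fold change was -0.16 over the members, -0.18 over the peroxins, -0.22 over the membrane proteins and -0.082 over the enzymes, and -0.0082 over all genes. Without KP replicate 1, 27 of the 47 members then tested were below 0 and the median was -0.095, and without KP-PPARαΔ13 replicate 2 it was -0.10. The median was -0.25 with sex as a covariate, with 36 of 46 below 0, and -0.081 with the tumors of one mouse summed. At an unadjusted p below 0.05 there were 6 of 46 members (beside 11.4% of all genes), 5 of them lower (10.9% beside 6.03%). The groups did not overlap for 11 members (23.9% beside 13.3%), of which 10 were lower (21.7% beside 6.7%): *Pex3*, *Pex11a*, *Pxmp2*, *Eci2*, *Pecr*, *Cat*, *Dhrs4*, *Slc27a2*, *Lonp2* and *Tysnd1*.

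*Pex11a* (mm10 chromosome 7, 79735957 to 79743131, minus strand) had 34.5, 76.3 and 32.0 CPM in KP and 13.3, 11.9 and 14.8 CPM in KP-PPARαΔ13. The highest tumor with doxycycline was less than 0.5 times the lowest without. All KP tumors were female and 2 of the 3 KP-PPARαΔ13 tumors male. The log2 fold change was -1.83 (SE 0.34, adjusted p = 0.249 in edgeR). DESeq2 gave it an adjusted p of 0.000345 with a log2 fold change of -1.82 (SE 0.36), and called 372 genes in this comparison. Over the other alternatives and each tumor left out in turn edgeR or limma did not call it, the adjusted p reaching up to 0.490. Without KP replicate 2 the log2 fold change was -1.32, and with sex as a covariate it was -2.08 (SE 0.42). The *Pex11a* promoter printed above held the GC box only at its very end, after the start, and no nuclear receptor element of the kind searched. *Pex11a* was the one peroxin at an unadjusted p below 0.05. Its paralog *Pex11g* had 14.7, 15.0 and 10.1 CPM in KP and 13.8, 12.8 and 8.41 CPM in KP-PPARαΔ13, which overlapped.

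Among the enzymes *Pecr*, the trans-2-enoyl-CoA reductase, had 36.9, 35.4 and 16.1 CPM in KP and 15.5, 14.4 and 12.03 CPM in KP-PPARαΔ13 (log2 fold change -1.08, SE 0.34, adjusted p = 0.327). KP replicate 3 stood close to the doxycycline tumors. *Lonp2*, the peroxisomal Lon protease, had 180.0, 194.1 and 125.3 CPM in KP and 119.2, 107.4 and 92.3 CPM in KP-PPARαΔ13 (-0.65, SE 0.21, adjusted p = 0.328). *Dhrs4*, a short-chain dehydrogenase that reduces carbonyls and retinal, had 34.4, 55.4 and 34.1 CPM against 28.3, 24.2 and 24.5 CPM (-0.69, SE 0.24, adjusted p = 0.351, and -0.42 without KP replicate 2). The 2 groups were apart for both genes by a small margin, and KP replicate 2 was highest in each. *Eci2*, an enoyl-CoA isomerase, had 77.0, 73.3 and 58.4 CPM against 45.3, 38.6 and 46.4 CPM (-0.68, SE 0.31, adjusted p = 0.441). *Ephx2*, which hydrolyzes epoxides of fatty acids, went the other way, with 4.62, 5.002 and 4.77 CPM in KP and 9.60, 25.2 and 17.6 CPM in KP-PPARαΔ13 (1.86, SE 0.72, adjusted p = 0.379). It was the only member higher without overlap of the groups (2.17%, beside 6.55% of all genes).

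**Figure D4:**
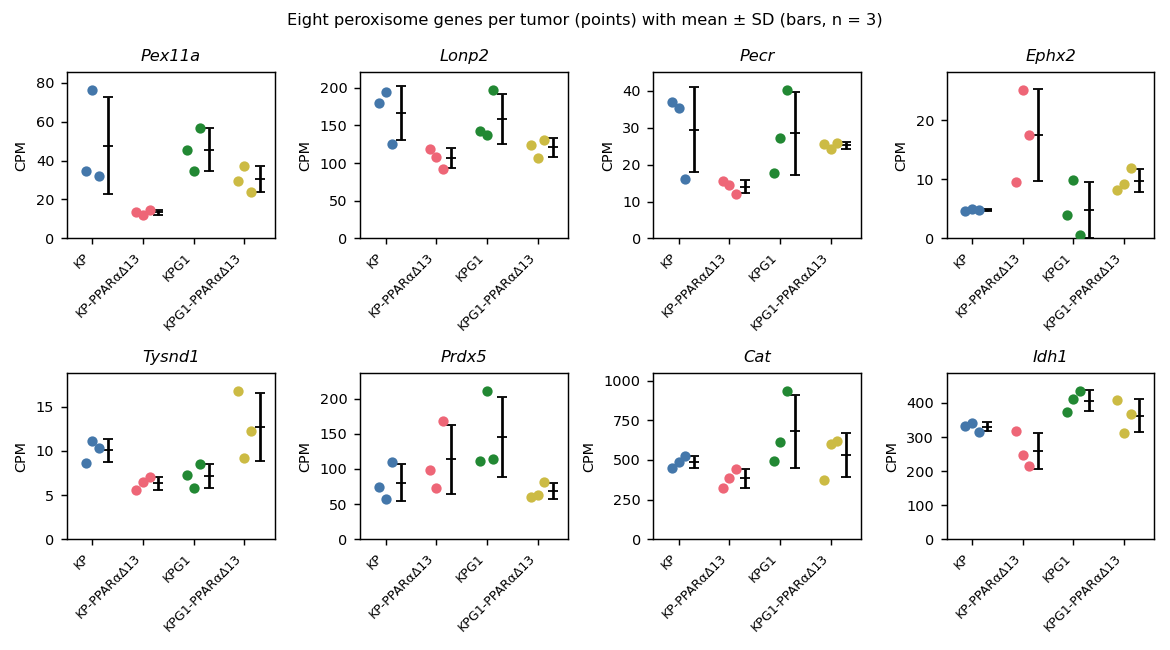
CPM of 8 members in each tumor (points in the order of replicates 1 to 3) with the mean ± SD of each group (n = 3) at the right of the points, on axes that start at 0. *Pex11a* lies between 11.9 and 14.8 in KP-PPARαΔ13 and at or above 24.1 elsewhere, and *Tysnd1* is lower in KP-PPARαΔ13 than in KP and higher in KPG1-PPARαΔ13 than in KPG1.

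The same comparison in tumors of Glut1 Fl/Fl mice, KPG1-PPARαΔ13 against KPG1, asked whether the differences with doxycycline appeared there as well. Again no member passed (edgeR, beside 0.00605% of all genes), nor did any with DESeq2, which called 197 genes. A log2 fold change below 0 was found for 31 of 46 members (67.4%, beside 47.8% of all genes): 8 of 13 peroxins, 4 of 5 membrane proteins and 19 of 28 enzymes. The median was -0.19 over the members, -0.071 over the peroxins, -0.43 over the membrane proteins and -0.19 over the enzymes, beside 0.023 over all genes. Without KPG1 replicate 3, 24 of the 47 members then tested were below 0 and the median of the members was -0.066, and without KPG1-PPARαΔ13 replicate 2 it was -0.10. At an unadjusted p below 0.05 there were 4 members (8.7% beside 10.8%), and 9 had groups that did not overlap (19.6% beside 20.6%), 7 of them lower (15.2% beside 9.41%) and 2, *Tysnd1* and *Pex26*, an anchor of the import machinery, higher (4.35% beside 11.2%). The 2 shares counted in both directions were near those of all genes.

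*Pex11a* had 45.6, 34.6 and 56.6 CPM in KPG1 and 29.6, 37.4 and 24.1 CPM in KPG1-PPARαΔ13, where replicate 2, the male tumor, lay within the control range (log2 fold change -0.59, SE 0.33, adjusted p = 0.545, and -0.36, SE 0.40, with sex as a covariate). *Prdx5*, a peroxiredoxin found in peroxisomes, mitochondria and cytosol, had 111.5, 211.2 and 114.6 CPM in KPG1 and 60.4, 63.7 and 82.0 CPM in KPG1-PPARαΔ13 (-1.08, SE 0.36, adjusted p = 0.420). In KP it had 74.1, 57.8 and 109.6 CPM, and in KP-PPARαΔ13 99.2, 73.3 and 168.4 CPM, which overlapped. *Nudt12*, a hydrolase of nucleotide cofactors, had 25.7, 24.1 and 25.8 CPM in KPG1 and 17.0, 20.6 and 17.2 CPM with doxycycline (-0.46, SE 0.20, adjusted p = 0.452, and -0.26 with sex as a covariate). *Acox3*, an oxidase of branched acyl-CoAs, had 62.6, 53.3 and 59.1 CPM against 39.7, 44.8 and 45.3 CPM (-0.43, SE 0.19, adjusted p = 0.461). The KPG1 values of these last 2 genes were close to one another and all above those with doxycycline. *Lonp2* was lower without overlap here as in KP, with 142.0, 136.9 and 197.3 CPM against 124.6, 106.8 and 131.2 CPM (-0.39, SE 0.21, adjusted p = 0.531). No other member was lower without overlap in both genotypes. The share of all genes lower without overlap in both was not counted, so this has no reference beside it.

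*Tysnd1* (mm10 chromosome 10, 61695514 to 61702773, plus strand), the protease that trims imported peroxisomal enzymes, took opposite directions in the 2 genotypes. It had 8.66, 11.1 and 10.4 CPM in KP and 5.52, 6.46 and 7.001 CPM in KP-PPARαΔ13 (log2 fold change -0.67, SE 0.29, adjusted p = 0.417), but 7.28, 5.78 and 8.46 CPM in KPG1 and 16.8, 9.16 and 12.2 CPM in KPG1-PPARαΔ13 (0.83, SE 0.29, adjusted p = 0.420). Neither pair of groups overlapped. The change with doxycycline differed between genotypes by 1.49 (SE 0.41, adjusted p = 0.335 in edgeR), and DESeq2 gave this an adjusted p of 0.0258 (1.47, SE 0.40). Sex moved with these groups: the female tumors of KP and KPG1-PPARαΔ13 were high, the female KP-PPARαΔ13 tumor read 6.46 CPM and the male KPG1-PPARαΔ13 tumor 9.16 CPM. With sex as a covariate the log2 fold change was -0.42 in KP and 0.56 in KPG1, and their difference 0.99 (SE 0.61, adjusted p = 0.950). The 2 highest tumors, 16.8 and 12.2 CPM, came from one mouse.

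Of all members, 4 differed between genotypes in their change with doxycycline at an unadjusted p below 0.05 (8.7% beside 11.8% of all genes) and none at an adjusted one in edgeR (0% of all genes). *Prdx5* had a difference of -1.58 (SE 0.50, adjusted p = 0.351), and *Pex11a* 1.25 (SE 0.47, adjusted p = 0.380), the latter from a lower mean with doxycycline in both genotypes, by less in KPG1. Without KP replicate 2 the *Pex11a* difference was 0.73. *Slc27a2* had 4.49 (SE 1.90, adjusted p = 0.404) from very few reads: 13, 45 and 13 in KP, 1, 2 and 8 in KP-PPARαΔ13, 8, 1 and 21 in KPG1 and 3, 5 and 120 in KPG1-PPARαΔ13. Without KPG1-PPARαΔ13 replicate 3 it was 1.20, and with sex as a covariate 1.96. A difference below 0 was found for 23 of 46 members, beside 48.3% of all genes, and with sex as a covariate for 13 of 46.

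Averaged over both genotypes, 35 of 46 members (76.1%, beside 48.9% of all genes) had a log2 fold change below 0 with doxycycline, with a median of -0.20 beside 0.0079. No member passed in edgeR (0.0182% of all genes did). At an unadjusted p below 0.05 there were 6 members (beside 10.1% of all genes), 5 of them lower (10.9% beside 4.91%): *Pex11a* (-1.21, SE 0.24), *Lonp2* (-0.52, SE 0.15), *Dhrs4* (-0.52, SE 0.17), *Pecr* (-0.63, SE 0.24) and *Scp2* (-0.61, SE 0.25) were lower and *Ephx2* (1.44, SE 0.50) higher, with adjusted p-values of 0.176 to 0.448. DESeq2 gave *Pex11a* an adjusted p of 0.000914. *Scp2*, the sterol carrier and thiolase of branched fatty acids, had 198.6, 156.2 and 192.8 CPM in KP against 80.8, 94.2 and 177.9 CPM with doxycycline, and 173.7, 143.5 and 309.4 CPM in KPG1 against 101.2, 174.8 and 143.2 CPM with doxycycline, so that the groups of each genotype overlapped. Set side by side, 23 of the 46 members had lower means with doxycycline in both genotypes, as did 22.9% of all genes, and 6 had higher means in both, as did 24.2%. The 2 genotypes share no tumors. Without KPG1 replicate 3, 29 of the 47 members then tested were below 0 in the average with a median of -0.11, and the median was also -0.11 without KP replicate 1.

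**Figure D5:**
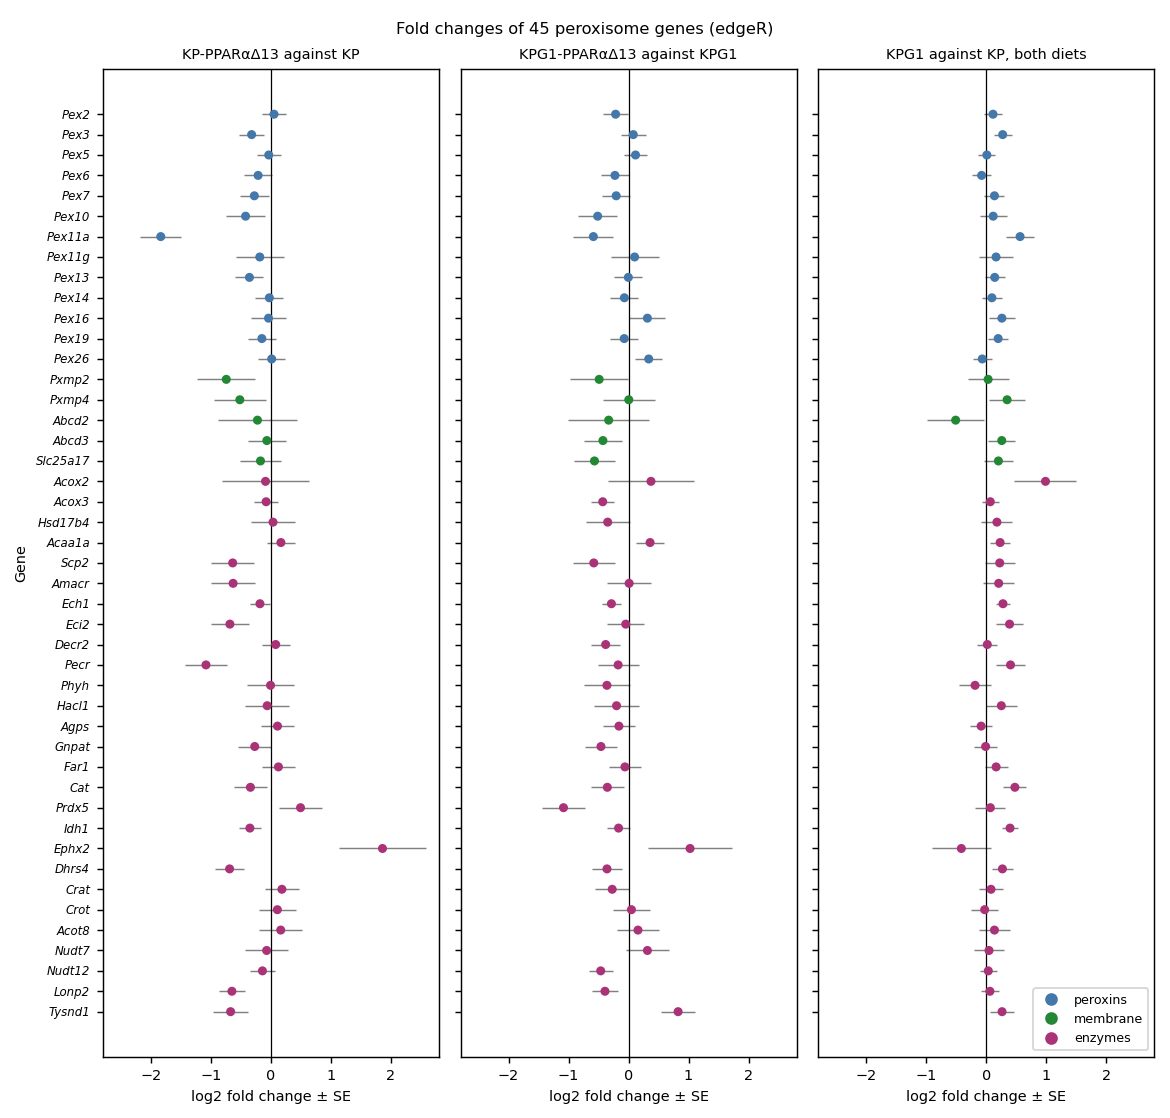
Log2 fold changes (points) from edgeR and their SE derived from the F statistic (bars) for 45 members, colored by class, with *Slc27a2* left out for its low counts. *Pex11a* stands at -1.83 in KP and -0.59 in KPG1, and most points of the right panel, KPG1 against KP, lie above 0.

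A further list, chosen with earlier results of these data known, held 12 members usually counted among PPARα targets in rodents (*Pex11a*, *Abcd2*, *Abcd3*, *Acaa1a*, *Hsd17b4*, *Cat*, *Ech1*, *Eci2*, *Slc27a2*, *Acot8*, *Crot* and *Decr2*). With doxycycline 7 of 12 were below 0 in KP (58.3% beside 50.8% of all genes, median -0.12) and 8 of 12 in KPG1 (66.7% beside 47.8%, median -0.31). None passed. In KP *Pex11a* alone had an unadjusted p below 0.05 (8.33% beside 11.4% of all genes), and 4 of 12 were lower without overlap (33.3% beside 6.7%). In KPG1 none had an unadjusted p below 0.05 (beside 10.8%), and 2 of 12 were lower without overlap (16.7% beside 9.41%). *Abcd3*, for instance, had 306.8, 155.2 and 286.0 CPM in KP and 168.6, 244.0 and 302.7 CPM in KP-PPARαΔ13, which overlapped (-0.064, SE 0.32). *Acaa1a*, a thiolase, had 0.17 (SE 0.23) in KP and 0.36 (SE 0.23) in KPG1, and *Crot*, the carnitine octanoyltransferase, 0.11 (SE 0.31) and 0.048 (SE 0.31). *Cat* had -0.34 (SE 0.27) in KP, with no overlap, and -0.35 (SE 0.27) in KPG1, where it was -0.087 without KPG1 replicate 3 and -0.15 without KPG1-PPARαΔ13 replicate 1. *Ech1* had -0.18 (SE 0.16) and -0.29 (SE 0.16) and *Decr2*, a dienoyl-CoA reductase, 0.083 (SE 0.24) and -0.38 (SE 0.24), both with no overlap in KPG1. *Hsd17b4*, the bifunctional enzyme of branched fatty acids, had 0.038 (SE 0.36) and -0.35 (SE 0.36), and the thioesterase *Acot8* 0.17 (SE 0.35) and 0.16 (SE 0.35). *Abcd2*, a transporter counted with 6 to 31 reads per tumor, had -0.22 (SE 0.66) and -0.33 (SE 0.67). *Eci2* had -0.68 in KP but -0.047 in KPG1. Its KPG1 values of 77.5, 50.2 and 91.3 CPM overlapped with 108.6, 49.4 and 53.9 CPM in KPG1-PPARαΔ13. With each tumor left out in turn, the log2 fold change of *Eci2* in KPG1 ranged from -0.50 to 0.15. Single tumors moved such small values by over 1.5 times: with each left out in turn, *Acaa1a* ranged from 0.0054 to 0.28 in KP and from 0.14 to 0.54 in KPG1, and *Ech1* from -0.28 to -0.087 in KP. *Acaa1a* has a near-identical copy, *Acaa1b*, with which reads could be shared.

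To address Glut1, the genotypes were compared over both diets. Of the 46 members, 38 (82.6%, beside 47.8% of all genes) had a log2 fold change above 0 in KPG1, namely 11 of 13 peroxins, 4 of 5 membrane proteins and 23 of 28 enzymes. The median was 0.15, beside -0.014 over all genes. None passed (0.0484% of all genes did). At an unadjusted p below 0.05 there were 4 members (8.7% beside 4.53%), all higher in KPG1 (8.7% beside 2.15%): *Idh1*, *Cat*, *Ech1* and *Pex11a*. Of the 12 members listed as PPARα targets, 10 were above 0 in KPG1 (83.3% beside 47.8%, median 0.24). At an unadjusted p below 0.05 there were 3 of the 12 (25% beside 4.53%). In the means, 21 members (45.7%, beside 20.5%) were higher in KPG1 on both diets and 3 (6.52%, beside 19.9%) lower on both. Without KPG1 replicate 3, 30 of the 47 members then tested were above 0 with a median of 0.066, and with sex as a covariate 33 of 46 were.

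*Idh1* had 332.7, 341.1 and 315.5 CPM in KP and 372.7, 412.4 and 435.8 CPM in KPG1, then 317.2, 246.9 and 213.7 CPM in KP-PPARαΔ13 and 407.9, 311.4 and 368.4 CPM in KPG1-PPARαΔ13 (log2 fold change over both diets 0.39, SE 0.13, adjusted p = 0.976 in edgeR). On the regular diet the genotypes did not overlap, but there all KP tumors were female and all KPG1 tumors male, so that genotype and sex cannot be told apart. With doxycycline the single male KPG1-PPARαΔ13 tumor (311.4 CPM) lay between the male KP-PPARαΔ13 tumors (317.2 and 213.7), and both female ones (407.9 and 368.4) above the female KP-PPARαΔ13 tumor (246.9). On the regular diet *Cat* had 450.1, 484.0 and 525.4 CPM in KP against 491.9, 611.6 and 935.8 CPM in KPG1, and with doxycycline 325.0, 387.4 and 442.3 CPM against 373.7, 601.4 and 620.7 CPM (0.47, SE 0.19, adjusted p = 0.976). KPG1 replicate 3 was far above the others, and without it the value was 0.33. *Ech1*, a dienoyl-CoA isomerase, had 90.0, 92.8 and 85.6 CPM in KP and 111.1, 110.5 and 115.7 CPM in KPG1, and 78.9, 68.7 and 89.5 CPM in KP-PPARαΔ13 against 107.2, 81.0 and 88.4 CPM in KPG1-PPARαΔ13 (0.28, SE 0.11, adjusted p = 0.976). The genotypes overlapped only with doxycycline. *Pex11a* was at 0.56 (SE 0.24, adjusted p = 0.976), from the values above. Its mean log2 CPM was higher in KPG1 by only 0.028 on the regular diet and by 1.16 with doxycycline. The genotype value of *Pex11a* thus came from the tumors with doxycycline.

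Markers of the cells in these samples moved with some of the groups. The 7 AT2 markers (all tested, *Sftpc* most abundant, none at 0) summed to 43902, 23264 and 52114 CPM in KP and, with doxycycline, 21345, 23860 and 52626 CPM. They summed to 40608, 67484 and 56897 CPM in KPG1 and, with doxycycline, 23844, 30763 and 35582 CPM, below every KPG1 tumor. The 6 fibroblast markers (all tested, *Col1a2* most abundant, *Lum* at 0 in KPG1 replicate 2) summed to 132.7, 112.6 and 241.4 CPM in KP and 410.3, 529.1 and 265.9 CPM in KP-PPARαΔ13, above every KP tumor, and to 354.3, 85.1 and 224.2 CPM in KPG1 and 169.6, 126.9 and 183.3 CPM in KPG1-PPARαΔ13. The 5 erythroid markers (all tested, *Hbb-bs* most abundant) summed to 583.1, 319.1 and 764.7 CPM in KP and 1320, 849.9 and 903.5 CPM in KP-PPARαΔ13, also without overlap. The 5 AT1 (alveolar type 1) markers (all tested, *Ager* most abundant) summed to 2321, 2126 and 1669 CPM in KPG1 and 596.3, 832.8 and 1026 CPM in KPG1-PPARαΔ13, again apart. In KP they summed to 2211, 177.4 and 1886 CPM and with doxycycline to 1416, 1631 and 2733 CPM. With doxycycline the genotypes did not overlap for either the fibroblast or the AT1 markers, both higher in the KP-PPARαΔ13 tumors. The 4 club cell markers (all tested, *Cyp2f2* most abundant) summed to 125.1, 84.4 and 60.9 CPM in KP and 376.5, 229.3 and 141.1 CPM in KPG1, which did not overlap either. In KPG1 replicate 3, the tumor with the highest peroxisome averages, the erythroid sum (961.6 CPM), the leukocyte sum (46.4 CPM) and the ciliated cell sum (35.2 CPM) were the highest of the KPG1 group. Its sums of the epithelial (3030 CPM), AT1, club, gastric lineage (526.3 CPM, the lowest of the 12 tumors) and cycling markers (216.2 CPM) were the lowest of the group, and those of the AT2, fibroblast and endothelial markers (389.1 CPM) lay between the other two. Of the 6 leukocyte markers, 5 were tested. *Ptprc*, which encodes CD45, stood at 1.88 to 31.5 CPM and *Cd3e* at 0 to 0.241 CPM, while *Epcam* stood at 297.9 to 622.6 CPM and *Nkx2-1*, a lung lineage factor, at 208.5 to 532.8 CPM. The part of cell content in the peroxisome values was not tested, and in bulk RNA fewer cells of a type and less RNA per cell cannot be told apart.

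The list of 40 other peroxisomal genes, which the 48 do not hold, gave 34 tested genes and none that passed in any comparison. With doxycycline, 19 of 34 were below 0 in KP (55.9% beside 50.8% of all genes, median -0.092) and 20 in KPG1 (58.8% beside 47.8%, median -0.068). In the average 18 were below 0 (52.9% beside 48.9%, median -0.021). Between genotypes over both diets, 22 of 34 were above 0 in KPG1 (64.7% beside 47.8%, median 0.035). *Ehhadh*, the bifunctional enzyme of peroxisomal β-oxidation, had 10.4, 10.7 and 8.32 CPM in KP and 11.002, 12.3 and 15.6 CPM in KP-PPARαΔ13 (0.40, SE 0.25, adjusted p = 0.587). At an unadjusted p below 0.05 in KP there were 6 of 34 genes (17.6% beside 11.4%): the oxidases *Ddo* (-3.32, SE 0.73) and *Pipox* (-2.21, SE 0.71), the CoA hydrolase *Nudt19* (-1.08, SE 0.30) and the thioesterase *Acot6* (-2.83, SE 1.00) were lower, and *Dnm1l*, a GTPase of organelle division (0.43, SE 0.19), and *Sod1*, a superoxide dismutase (0.43, SE 0.19), higher, with adjusted p-values of 0.256 to 0.435. *Ddo*, which oxidizes D-aspartate, had 6.37, 8.85 and 1.98 CPM in KP and 1.03, 0.291 and 0.402 CPM in KP-PPARαΔ13. *Pipox*, the pipecolic acid and sarcosine oxidase, had 13.4, 76.5 and 11.8 CPM against 11.2, 7.84 and 3.05 CPM, with KP replicate 2 far above all. In KPG1, 1 of 34 had an unadjusted p below 0.05 (2.94% beside 10.8%), *Tmem135* (-0.51, SE 0.22, adjusted p = 0.449).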

How the data were processed

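Per the labels and the methods of the study, TruSeq stranded mRNA libraries were sequenced, trimmed with Cutadapt and aligned to mm10 with HISAT2. The submitters' processing notes name featureCounts 1.4.4 and Cutadapt 1.4.2, the latter a version other than that in the methods. Annotation and strand setting are not given in the sources used here, so overlapping antisense genes cannot be told apart. The authors deposited raw read counts per gene, in one file per tumor and in a combined table, and the 12 single files equalled it. Their log2 table was not used. One gene of the other peroxisomal list and one allele are not reported here. The members and all lists were chosen with earlier results of these data known.

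Counts were tested with edgeR (4.0.16 in R 4.3.3): filterByExpr, TMM, and a two-sided quasi-likelihood test over all 12 tumors (8 residual degrees of freedom, biological coefficient of variation 0.44), with Benjamini-Hochberg adjustment over 16527 genes and a threshold of 0.05. With 3 against 3 tumors an exact permutation test cannot go below 0.1, so single genes were not tested that way. The SE printed with an edgeR value is the absolute log2 fold change over the square root of the F statistic of that test. Exon lengths and positions are from GENCODE M21. Log2 CPM for class averages and SDs had a prior count of 2. The tests were tested on simulated data first.

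Members described in full had an unadjusted p below 0.05 and no overlap (for comparisons over 2 groups), ranked among the 3 highest per length of a class, had extreme SDs or were in the PPARα target list. *Pex3*, *Pex11g*, *Pxmp2*, *Pex14*, *Pex16*, *Pex26*, *Phyh* and *Scp2* fell outside this in part, and examples among them and the other peroxisomal genes were picked with their values seen. Alternatives were DESeq2 (1.42.0), limma voom (3.58.1), upper-quartile scaling, no filter, a mean of at least 20 CPM, sex, a replicate block, tumors of one mouse summed, only the compared tumors, and each tumor left out. The counts of members in one direction under them were added after seeing the data.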

Additional observations from a re-analysis of the deposited data

Results flagged for a closer look

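*Tysnd1* differed between the genotypes in its log2 fold change with doxycycline, by 1.49 (edgeR, SE 0.41, unadjusted p = 0.00359, adjusted p = 0.335). The 3 KP-PPARαΔ13 tumors lay below the 3 KP tumors, and the 3 KPG1-PPARαΔ13 tumors above the 3 KPG1 tumors. Members were flagged for just this, no overlap in opposite directions in the 2 genotypes, or for an adjusted p below 0.05. The separation is thus the rule itself and not a further result. The share of all genes that meet the rule was not counted. Over each tumor left out in turn the difference was 1.24 to 1.68, and over all alternatives the adjusted p was 0.0258 (DESeq2) to 0.950 (sex as a covariate). Groups of 3 tumors were too small to look for single tumors far from the others by a fixed rule.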

How the results depend on the processing

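No member was called in any comparison by edgeR, limma or any setting of them. DESeq2 called 1 member in KP, in the average over genotypes and in the difference between genotypes (*Pex11a*, log2 fold change -1.82 and -1.21, and *Tysnd1*, 1.47). Genes called of all tested went from 1 to 372 in KP with DESeq2, 2 without the filter and 0 with sex, tumors of one mouse summed or only the compared tumors (0 to 1 with a tumor left out, 0 without KP 1 or any KP-PPARαΔ13 tumor). In KPG1 they went from 1 to 197 with DESeq2 and 0 with voom, summed or only compared tumors (0 to 2 left out, 0 without any KPG1 tumor, 2 without KP 2 or KPG1-PPARαΔ13 2). In the average they went from 3 to 286 with DESeq2 and 5 without the filter (2 to 13 left out, 13 without KP-PPARαΔ13 3 and 6 without KPG1-PPARαΔ13 1), between genotypes from 8 to 39 with DESeq2, 1 at 20 CPM and 3 summed (6 to 11 left out), and for the difference from 0 to 286 with DESeq2. Its median over members was -0.033 to 0.19 with a tumor left out (0.19 without KPG1 3), and with sex 13 of 46 members lay below 0 in place of 23. Peroxins minus enzymes, with members of at least 20 CPM, became 0.22 in KP 2, -0.11 in KPG1 3 and 0.025 in KPG1-PPARαΔ13 3. The peroxin minus enzyme difference then no longer overlapped between KPG1 and KPG1-PPARαΔ13. Of 1552 values of named members under alternatives, 3 became calls with DESeq2, 1473 kept their sign and 79 took the other sign, 77 of these within 1 SD between tumors. The other 2 were *Slc27a2* without KPG1-PPARαΔ13 3, -1.39 in place of 1.90 in KPG1 and -0.50 in place of 1.15 between genotypes. Of the 77 fold changes of named members, 55 moved by over 1.5 times under some alternative. The causes were not tested.

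The replicate numbers did not pair the tumors: same-numbered tumors of different groups had correlations of -0.19 to 0.13 (18 pairs), and 4 of 12 tumors correlated best with their own number. With a replicate block 0 genes were called in KP, 2 in KPG1, 4 in the average, 5 between genotypes and 0 for the difference, and no member. *Far2*, *Baat*, *Abcd2* and *Slc27a2* had few reads at this depth.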

Other observations

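Receptors that act on peroxisome genes were also counted. *Pparg*, the receptor of fat and alveolar lipid storage, had 40.1, 43.7 and 41.7 CPM in KP and 64.9, 80.3 and 50.6 CPM in KP-PPARαΔ13 (log2 fold change 0.64, SE 0.24, edgeR adjusted p = 0.375), with all 3 tumors above those on the regular diet. In KPG1 it had 41.2, 52.2 and 59.8 CPM and with doxycycline 92.3, 53.9 and 64.3 CPM, which overlapped (0.46, SE 0.24, adjusted p = 0.526). *Ppard*, the widely expressed relative, had 50.1, 52.1 and 49.4 CPM in KP and 68.7, 63.6 and 85.5 CPM in KP-PPARαΔ13 (0.52, SE 0.31, adjusted p = 0.566), and -0.39 (SE 0.31, adjusted p = 0.683) in KPG1. The partner receptors *Rxra* and *Rxrb* had log2 fold changes of 0.15 (SE 0.44) and -0.0099 (SE 0.17) in KP, and the coactivator *Ppargc1a* -0.034 (SE 0.64), each with groups that overlapped.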
